A study of Rattus norvegicus with 6 samples.

Results

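The machinery with which osteoclasts acidify the bone surface was measured in rat subchondral bone through 8 genes: Car2, Tcirg1, Atp6v0d2, Atp6v1a, Atp6v1c1, Atp6v1h, Clcn7 and Ostm1. The members were taken by gene name from the deposited table, where each name had 1 row. They are 8 of 30600 rows with values, 22050 of which are annotated rat genes. All 8 passed the limit used here for an expressed gene, which was a median FPKM of at least 1. FPKM counts fragments per kilobase of transcript and adjusts for library size. In all, 11625 annotated genes passed it.

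Osteoclasts dissolve bone mineral by pumping protons into a sealed space beneath a folded membrane, the ruffled border. Carbonic anhydrase 2 makes the protons from carbon dioxide and water, and the vacuolar H+-ATPase (V-ATPase) pumps them with energy from ATP. The pump has a membrane part, V0, that conducts protons and a cytosolic part, V1, that splits ATP. The exchanger ClC-7 and its partner Ostm1 carry chloride alongside the protons, and loss of CA2, TCIRG1, CLCN7 or OSTM1 causes osteopetrosis, a disease of overly dense bone, in humans. Most V-ATPase subunits also serve lysosomes in every cell, and carbonic anhydrase 2 is abundant in red cells, so these genes are not private to osteoclasts.

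The study looked for genes that link low temperature to arthritis, by sequencing RNA from the bone under the joint cartilage of rats held at low or at normal temperature. Its libraries, 6 in number, carry the titles S10, S12, S13, S20, S21 and S23, and the labels used here give no temperature, treatment, strain, age or group for any of them. They were therefore kept ungrouped, with values given per library and with no comparison between temperatures and no test. The labels do not say whether the libraries came from separate animals. In such bulk tissue, fewer cells of a type and less RNA per cell cannot be told apart.

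Total counts ranged from 39990624 to 59200981 per library. Library S10 stood apart in the deposited FPKM: over the 6 libraries, relative to each gene's own median, the median of log2(FPKM + 1) over expressed genes was -0.31 in S10 and between -0.03 and 0.14 in the other libraries. This shift went with gene length, since the median was -0.58 in S10 for the 2907 longest genes and 0.04 for the 2907 shortest. S12 and S20 had the opposite trend, with 0.31 and 0.32 for the longest genes and -0.05 and -0.18 for the shortest. Bone markers were present: all 8 osteoblast genes, 8 of 10 osteoclast genes and 5 of 6 chondrocyte genes passed the limit, the exceptions being Calcr, Ocstamp and Sox9. Marrow was present too, with 10 of 10 measured red cell genes and 9 of 10 neutrophil genes expressed, while Ltf had at most 5 counts per library. Muscle markers summed to 107 FPKM in S12 and 12.2 to 44.0 FPKM in the other libraries, and adipocyte markers to 96.8 FPKM in S12 and 1.30 to 25.2 FPKM elsewhere.

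Car2 was by far the most abundant member, and Clcn7 the least. Medians were 1042 FPKM for Car2, 42.2 FPKM for Atp6v1a, 31.8 FPKM for Atp6v1c1, 30.5 FPKM for Atp6v1h, 26.9 FPKM for Tcirg1, 13.6 FPKM for Ostm1, 12.2 FPKM for Atp6v0d2 and 6.39 FPKM for Clcn7. Only 69 expressed genes had a higher median than Car2, whereas 7007 had a higher median than Clcn7. FPKM is scaled by transcript length, which allows these levels to be set side by side. The length trend seen in S10, S12 and S20 remains in them. The order had 2 clear steps. The lowest Car2 value lay above the highest value of every other member, and the lowest Tcirg1 value (19.7 FPKM) lay above the highest values of Ostm1 (16.6 FPKM), Atp6v0d2 (17.4 FPKM) and Clcn7 (8.79 FPKM). Between neighbours within the group Atp6v1a, Atp6v1c1, Atp6v1h and Tcirg1, and within the group Ostm1, Atp6v0d2 and Clcn7, the ranges over the libraries overlapped.

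**Figure D1:**
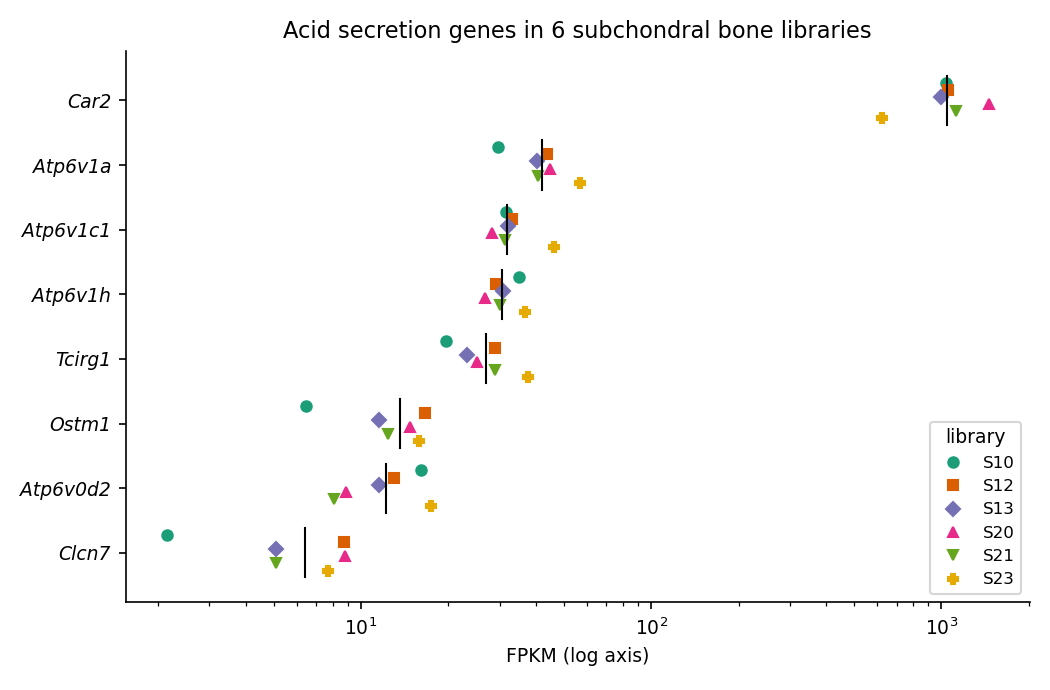
FPKM (log axis) of the 8 acid secretion genes in each of the 6 libraries, with genes ordered by median (vertical bar) and 1 symbol per library. Car2 lies near 1042 FPKM, a group of 4 V-ATPase genes between 19.7 and 56.7 FPKM, and Ostm1, Atp6v0d2 and Clcn7 between 2.14 and 17.4 FPKM.

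Car2 (ENSRNOG00000009629), the cytosolic enzyme that supplies the protons, had 1454 FPKM in S20, 1119 in S21, 1051 in S12, then 1034 in S10, 999 in S13 and 622 in S23. S20 was high, S23 was low, and the other 4 libraries lay close together. S23 stayed lowest under each scaling tried, whereas under TMM and median-ratio scaling S10 was highest. The counts behind these values were 52652 to 119008 per library, so counting error was small. Among 14 other carbonic anhydrases only 7 were expressed, and Car1, the second red cell isoform, and Car3, an isoform of muscle and fat, led them. Car1, like Car2, was lowest in S23, at 289 FPKM, and highest in S20, at 708 FPKM. The Car2 to Car1 ratio within a library lay between 2.004 and 2.94. Car13, another cytosolic isoform, had a median of 0.539 FPKM, and the membrane-bound Car12 and Car14 had medians of 0.498 and 1.21 FPKM.

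By profile over the libraries, Car2 lay nearer to the red cell genes than to the osteoclast genes. Likeness was measured as the root mean square difference between the profiles of log2(FPKM + 1) minus each gene's own median, given here as a description over 6 libraries. Alas2, the first enzyme of heme synthesis in red cell precursors, lay at a distance of 0.16 log2 units from Car2 and was 32nd of 11624 genes ranked by likeness. Ctsk, the collagen-cleaving cathepsin of osteoclasts, lay at 0.64 and ranked 9932nd, and Acp5, the tartrate-resistant acid phosphatase, lay at 0.46 and ranked 5576th. The median distance from Car2 was 0.32 over 10 red cell genes and 0.34 over 5 megakaryocyte genes. It was 0.65 over 8 osteoclast genes, Atp6v0d2 among them, and 0.47 over all expressed genes. Under the other scalings, with length correction and without any 1 library, Alas2 ranked between 13th and 278th and Ctsk between 7084th and 10700th. Without S23, Alas2 ranked 278th at a distance of 0.15, and without S21 Ctsk ranked 7084th.

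Ratios within a library, which do not depend on the scaling between libraries, were computed for the same genes. The FPKM ratio of Car2 to Alas2 was 1.64 in S21, 1.57 in S23, 1.56 in S20, then 1.36 in S10, 1.35 in S12 and 1.30 in S13. It thus varied 1.26-fold over the 6 libraries. The ratio of Car2 to Ctsk was 5.09 in S21, 3.91 in S20, 2.51 in S13, then 2.49 in S10, 2.46 in S12 and 1.22 in S23, a 4.16-fold spread. The Car2 to Acp5 ratio varied 2.76-fold, between 2.24 in S23 and 6.19 in S21. In S23, where Car2 was lowest, 8 of 10 red cell genes were lowest as well, 9 under TMM scaling and 5 with FPKM at a common sum. Red cell markers summed to 160036 FPKM in S23 and 302903 to 434720 FPKM in the other libraries, or to 1555 FPKM and 2581 to 3232 FPKM without the globins. No measured red cell marker was at 0 in any library. The part of red cells in the Car2 level was not tested.

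**Figure D2:**
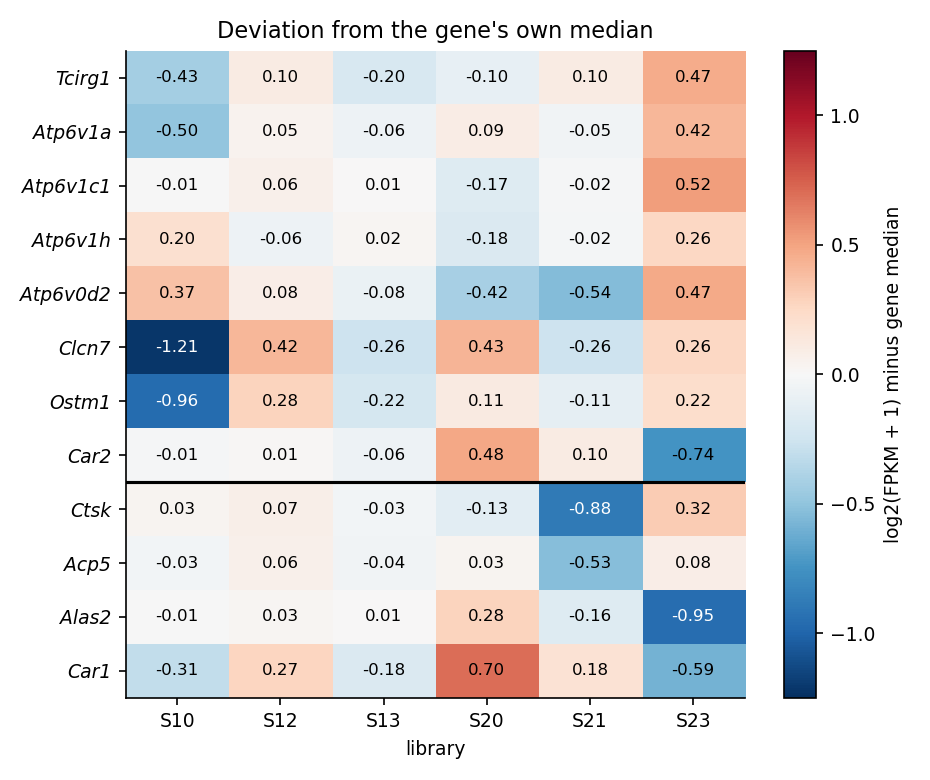
Deviation of each gene's log2(FPKM + 1) from its own median over the 6 libraries, with 8 acid secretion genes above the line and 2 osteoclast genes (Ctsk, Acp5) and 2 red cell genes (Alas2, Car1) below it. Car2, Alas2 and Car1 are lowest in S23, Atp6v0d2, Ctsk and Acp5 in S21, and Clcn7 and Ostm1 in S10. With TMM scaling the lowest value of Atp6v0d2 lies in S20 instead. Of the 8 expressed osteoclast genes 5 are lowest in S10, as are 60.1% of all expressed genes. The other 3, which are Atp6v0d2, Ctsk and Acp5, are lowest in S21, as are 4.77%.

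The 3 V1 members had similar levels. Atp6v1a (ENSRNOG00000001992) encodes the catalytic subunit A, which splits ATP, and had 56.7 FPKM in S23, 44.9 in S20, 43.6 in S12, then 40.8 in S21, 40.3 in S13 and 29.6 in S10. Atp6v1c1 (ENSRNOG00000004846) encodes subunit C1, which joins V1 to V0, and had 46.1 FPKM in S23, 33.2 in S12, 32.0 in S13, then 31.6 in S10, 31.4 in S21 and 28.2 in S20. Atp6v1h (ENSRNOG00000030862) encodes the regulatory subunit H, needed for activity of the joined pump, and had 36.6 FPKM in S23, 35.2 in S10, 30.9 in S13, then 30.1 in S21, 29.1 in S12 and 26.7 in S20. All 3 were highest in S23, although Atp6v1h was highest in S10 under TMM, median-ratio and length scaling, and Atp6v1c1 stood out there while its other 5 values lay between 28.2 and 33.2 FPKM. Without S23 the log2 range of Atp6v1c1 was 0.23 instead of 0.69. In the deposited values Atp6v1h had the narrowest range of the members, 0.44 log2 units or 1.37-fold, and 84.1% of expressed genes varied at least as much. This order depended on the scaling: the range of Atp6v1h was 0.92 under TMM scaling, 0.93 under median-ratio scaling and 0.68 after length correction, and Atp6v1a was then the narrowest, at 0.47, 0.45 and 0.62.

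Partner subunits of V1 set these levels in context. Atp6v1b2, which encodes the widely expressed B subunit, had a median of 91.4 FPKM, while Atp6v1b1, the kidney and inner ear form, was at 0 counts throughout. With a floor of 3 counts per library, its level lay under 0.0507 CPM (counts scaled to a library of 1e6) in S21 and under 0.0750 CPM in S10. The ratio of Atp6v1a to Atp6v1b2 was lowest in S10 (0.322) and highest in S20 (0.551). The length implied by counts and FPKM was 4449 bases for Atp6v1a and 2966 bases for Atp6v1b2. A trend of FPKM with length within a library need not cancel between genes of unlike length. Atp6v1d, Atp6v1e1 and Atp6v1f had medians of 53.7, 72.5 and 69.2 FPKM, and Atp6v1g1 had 190 FPKM. Atp6v1c2, the alternative C subunit, stayed at or under 0.457 FPKM, and Atp6v1c1 exceeded it by 69.1-fold in S10 to 183-fold in S13. Atp6v1e2, Atp6v1g2 and Atp6v1g3 likewise stayed under 0.5 FPKM in each library.

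The V0 member Tcirg1 (ENSRNOG00000017220) encodes a3, the form of the a subunit that brings the pump to the ruffled border, and had 37.5 FPKM in S23, 28.9 in S21, 28.9 in S12, then 25.005 in S20, 23.2 in S13 and 19.7 in S10. It was the highest of the 4 a subunits by median. Atp6v0a1 had a median of 16.9 FPKM, Atp6v0a2 had 4.72 FPKM, and the kidney form Atp6v0a4 stayed at or under 0.151 FPKM. Tcirg1 exceeded Atp6v0a1 in 5 of 6 libraries, with ratios from 1.35 in S12 to 2.25 in S23, and the ratio was 0.944 in S20. Its ratio to Atp6v0a2 was at least 4.26 in every library. Atp6v0a1 and Atp6v0a2 had longer implied lengths (4342 and 3600 bases) than Tcirg1 (3036 bases), so the length trend need not cancel in these ratios either.

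Atp6v0d2 (ENSRNOG00000006926) encodes the d2 subunit, which in mice is induced in osteoclasts and is required for the fusion of their precursors, and it was the minor d subunit in this tissue. It had 17.4 FPKM in S23, 16.1 in S10, 12.95 in S12, then 11.5 in S13, 8.88 in S20 and 8.09 in S21. S10 and S23 were high, and S20 and S21 were low. Under TMM scaling S10 was the highest library and S20 the lowest. Counts ran from 553 in S20 to 1250 in S23. Atp6v0d1, the widely expressed d1 subunit, had a median of 99.9 FPKM and ranged from 90.2 to 125 FPKM. The ratio of Atp6v0d2 to Atp6v0d1 was 0.164 in S10, 0.139 in S23, 0.127 in S12, then 0.117 in S13, 0.0984 in S20 and 0.0708 in S21. Atp6v0d2 was thus lower than Atp6v0d1 in 6 of 6 libraries, by 6.09-fold to 14.1-fold.

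Of the 8 members, Atp6v0d2 lay nearest to the osteoclast protease gene Ctsk. Ctsk had 220 FPKM in S21 and 372 to 508 FPKM in the other libraries, and its distance from Atp6v0d2 was 0.24 log2 units. This placed Ctsk 65th of 11624 genes by likeness to Atp6v0d2. Under the alternatives tried it ranked between 19th (without S20) and 462nd (without S23). Acp5, with 181 FPKM in S21 and 254 to 277 FPKM elsewhere, ranked 394th. The FPKM ratio of Atp6v0d2 to Ctsk varied 1.62-fold over the libraries, between 0.0239 in S20 and 0.0387 in S10. Not every osteoclast marker shared this order: Itgb3, the integrin of the sealing zone that is also a platelet gene, had its lowest value, 10.8 FPKM, in S10 and ranked 11424th. Mmp9, which neutrophils also carry, ranked 7512th. Over the 7 other expressed osteoclast genes the median distance from Atp6v0d2 was 0.56, against 0.50 over all expressed genes.

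**Figure D3:**
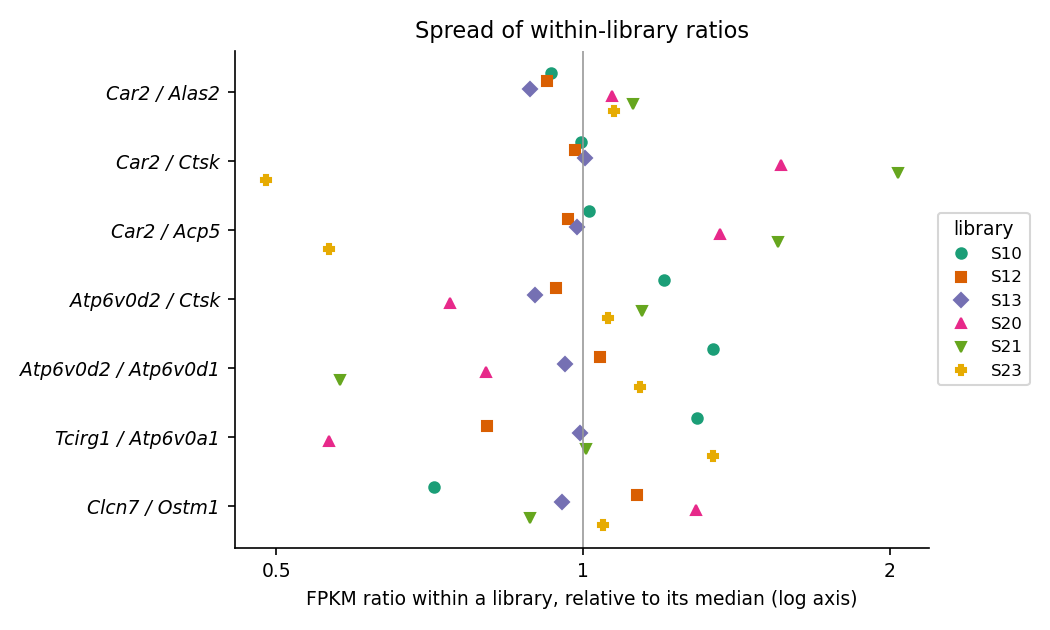
FPKM ratios between 7 gene pairs within each library, divided by the pair's median over the 6 libraries (log axis), with 1 symbol per library. The ratio of Car2 to Alas2 varies 1.26-fold, that of Atp6v0d2 to Ctsk 1.62-fold, and that of Car2 to Ctsk 4.16-fold with S23 lowest and S21 highest.

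Some V0 partners were more abundant than Tcirg1 and Atp6v0d2. Atp6v0c, which encodes the proton-carrying c subunit of the rotor ring, had a median of 309 FPKM, Atp6v0b had 148 FPKM and Atp6v0e1 had 129 FPKM, while Atp6v0e2 had 6.01 FPKM. The accessory genes Atp6ap1 and Atp6ap2 had 58.6 and 60.0 FPKM. Of 20 other V-ATPase genes 14 were expressed, and their median range was 0.60 log2 units, against 0.96 for the 8 members and 0.83 for all expressed genes. Of these 14 genes 7 were highest in S23 and 9 were lowest in S20 in the deposited values, against 24.0% and 17.1% of expressed genes. Under TMM scaling 1 was highest in S23, 10 were highest in S10 and 11 were lowest in S20, against 16.0%, 33.1% and 25.6% of expressed genes.

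**Figure D4:**
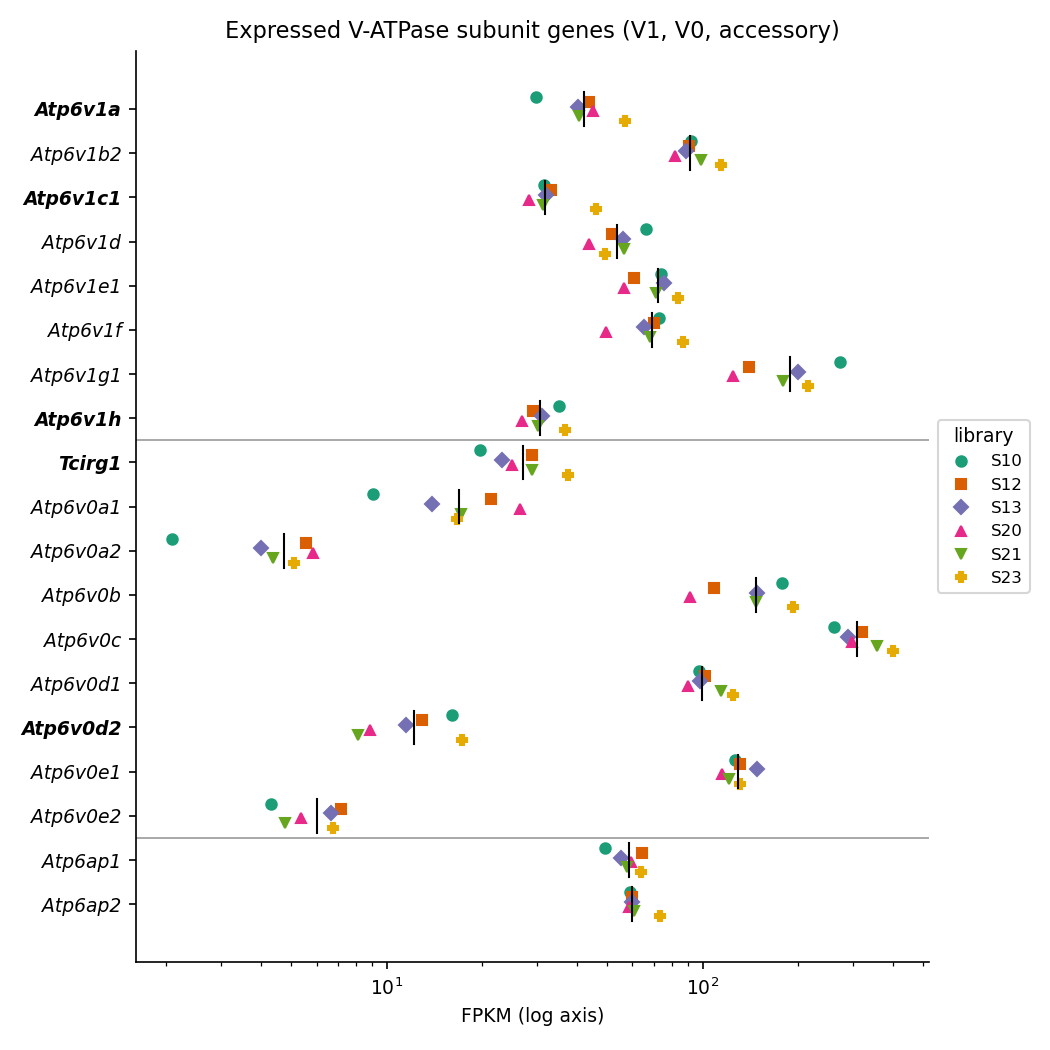
FPKM (log axis) of the 19 expressed V-ATPase genes in each library, with V1 subunits above, V0 subunits in the middle and accessory genes below; vertical bars mark medians and bold names mark the acid secretion genes. Tcirg1 lies above Atp6v0a1 and Atp6v0a2 by median, and all 6 values of Atp6v0d2 lie below those of Atp6v0d1.

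Clcn7 and Ostm1, whose proteins form 1 complex in which Ostm1 stabilises ClC-7, shared a low value in S10. Clcn7 (ENSRNOG00000016976) had 8.79 FPKM in S20, 8.70 in S12, 7.69 in S23, then 5.09 in S21, 5.07 in S13 and 2.14 in S10. Ostm1 (ENSRNOG00000037647) had 16.6 FPKM in S12, 15.9 in S23, 14.7 in S20, then 12.4 in S21, 11.5 in S13 and 6.48 in S10. In both genes S10 was lowest, S13 and S21 were intermediate, and S12, S20 and S23 were high. This order was not particular to the pair. The median deviation over all expressed genes was -0.31 in S10 and -0.03 in both S13 and S21. It was 0.06 in S20 and S23 and 0.14 in S12. In S10 the 257 counts of Clcn7 gave 6.43 CPM, with a 95% exact binomial interval (Clopper-Pearson) of 5.66 to 7.26, and the next lowest library, S13, gave 15.2 CPM (14.2 to 16.3). The 407 counts of Ostm1 in S10 gave 10.2 CPM (9.21 to 11.2), against 18.1 CPM (17.0 to 19.3) in S13. These intervals cover counting error only.

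A low value in S10 was common: it was the lowest library for 60.1% of expressed genes, and for 4 of 8 members (Tcirg1, Atp6v1a, Clcn7 and Ostm1). Relative to the median shift of all expressed genes, Clcn7 in S10 still stood at -0.90 and Ostm1 at -0.64 log2 units, while Tcirg1 stood at -0.12 and Atp6v1a at -0.18. Under TMM and median-ratio scaling and after length correction, only Clcn7 and Ostm1 of the 8 members kept their lowest value in S10. These 2 of 8 members stand beside 32.9%, 32.1% and 29.7% of expressed genes that were lowest in S10 under the same 3 settings. The length implied by counts and FPKM was 3007 bases for Clcn7 and 1575 bases for Ostm1, and the 2907 longest genes began at 3509 bases. Length correction moved the deviation in S10 from -1.21 to -0.81 for Clcn7 and from -0.96 to -0.91 for Ostm1. The log2 range after length correction was 1.08 for Clcn7 and 1.14 for Ostm1. Without S10 the log2 range of Clcn7 was 0.69 instead of 1.64, and that of Ostm1 was 0.50 instead of 1.24.

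The distance between Clcn7 and Ostm1 was 0.18 log2 units, which ranked Ostm1 456th of 11624 genes by likeness to Clcn7 and Clcn7 1202nd by likeness to Ostm1. Under the alternatives the rank of Ostm1 lay between 32nd, after length correction, and 1345th, without S23. Plekhm1, a lysosome positioning gene whose loss also causes osteopetrosis, lay at 0.19 from Clcn7 and at 0.17 from Ostm1, and had 2.05 FPKM in S10 and 3.95 to 6.69 FPKM elsewhere. Slc4a2, the bicarbonate-chloride exchanger of the osteoclast's opposite membrane, ranked 203rd by likeness to Ostm1, at 0.11. Of the other ClC exchangers, Clcn3 had a median of 5.10 FPKM, Clcn4 of 3.16 FPKM, Clcn6 of 2.79 FPKM and Clcn5 of 0.188 FPKM. The 3 expressed ones, all but Clcn5, were lowest in S10, as were 60.1% of expressed genes. Under TMM scaling Clcn4 was lowest in S20 instead, as were 25.6%. Clcn7 exceeded Clcn3 in 4 of 6 libraries, with ratios between 0.844 in S10 and 1.33 in S23.

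RefSeq promoter windows, 250 bases before to 50 bases after the annotated start in the assembly GRCr8, were matched for 4 of 8 members: Atp6v1a, Clcn7, Ostm1 and Tcirg1. Car2, Atp6v0d2, Atp6v1c1 and Atp6v1h had no entry there. The windows of the exchanger and its partner are shown because their proteins form 1 complex and both genes were lowest in S10, with the E-box CACGTG, which factors of the MITF and TFE family bind, in capitals. Clcn7 lies on the plus strand at chr10:14656011-14656310 and Ostm1 on the plus strand at chr20:47735072-47735371.
Clcn7: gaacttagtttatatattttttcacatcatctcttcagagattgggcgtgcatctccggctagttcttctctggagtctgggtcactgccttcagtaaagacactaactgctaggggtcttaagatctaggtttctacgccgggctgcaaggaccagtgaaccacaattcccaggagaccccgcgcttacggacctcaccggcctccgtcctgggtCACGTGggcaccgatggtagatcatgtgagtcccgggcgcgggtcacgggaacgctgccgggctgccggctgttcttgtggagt
Ostm1: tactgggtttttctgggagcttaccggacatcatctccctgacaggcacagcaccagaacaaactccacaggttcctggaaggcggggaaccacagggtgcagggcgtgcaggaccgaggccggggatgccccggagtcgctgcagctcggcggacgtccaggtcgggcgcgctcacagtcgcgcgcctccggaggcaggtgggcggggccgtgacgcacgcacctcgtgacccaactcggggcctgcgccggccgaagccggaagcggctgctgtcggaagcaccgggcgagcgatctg
The Clcn7 window held 1 CACGTG, starting at position -34 from the start site, and the windows of Ostm1, Tcirg1 and Atp6v1a held none. On both strands, 6.42% of 33469 windows of this length held it. No other E-box sequence was searched. The GC box GGGCGG, held by 33.1% of windows, numbered 5 in Tcirg1 and 1 in Ostm1. Atp6v1a held 1 copy of the AP-1 element TGACTCA, found in 4.63% of windows with its reverse complement counted as the same match. The element TATAAA occurred in Atp6v1a at -163 and in Clcn7 at -242, and in 14.2% of windows. The PU.1 core GAGGAA was in none of the 4 windows, against 27.6% of all. The NFAT core TGGAAA was likewise in none of them, against 22.7% of all. A match describes the letters in a window and is no evidence of binding.

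Taken by extremes, the members did not vary as 1 unit. A log2 range of at least 1 was reached by 4 of 8 members (Clcn7 1.64, Ostm1 1.24, Car2 1.22 and Atp6v0d2 1.01), against 36.6% of expressed genes. Both figures depended on the setting: without S10 they were 2 of 8 members and 13.6% of expressed genes, and with FPKM at a common sum 6 of 8 and 51.4%. Tcirg1 (0.90), Atp6v1a (0.92), Atp6v1c1 and Atp6v1h stayed under it in the deposited values. The highest value lay in S23 for 5 of 8 members (Tcirg1, Atp6v0d2, Atp6v1a, Atp6v1c1 and Atp6v1h), against 24.0% of expressed genes. After length correction 3 members were highest in S23, against 22.6% of expressed genes. Under TMM and median-ratio scaling 4 were, against 16.0% and 15.5%. Those 4 were Tcirg1, Atp6v1a, Atp6v1c1 and Ostm1. Car2 and Clcn7 were highest in S20, as were 28.8% of expressed genes, and Atp6v1c1 and Atp6v1h were lowest there, as were 17.1%. Ostm1 was highest in S12 (26.6% of expressed genes), Atp6v0d2 lowest in S21 (4.77%) and Car2 lowest in S23 (8.37%). S23 was also the library of the neutrophil genes: 9 of 9 expressed neutrophil markers were highest there (8 under TMM scaling) and summed to 72115 FPKM, against 16012 to 41731 FPKM in the other libraries. In S23 the osteoclast markers, which include the member Atp6v0d2, summed to 1136 FPKM, against 660 to 979 FPKM elsewhere. Of the 8 expressed osteoclast genes 5 were highest in S23, Atp6v0d2 among them. Under TMM scaling, however, 1 of 8 was highest in S23 and 3 in S10, against 16.0% and 33.1% of expressed genes. Of the macrophage genes, 1 of 8 was highest in S23. Marco, a macrophage marker, was at 0 counts in each library. The part of these cell types in the S23 values was not tested.

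Among the 28 pairs of members the nearest were Tcirg1 and Atp6v1a (0.12 log2 units), Atp6v1c1 and Atp6v1h (0.15), and Clcn7 and Ostm1 (0.18). The farthest pair was Atp6v0d2 and Clcn7 (0.76), followed by Car2 and Atp6v0d2 (0.69). The distances of Car2 from the 7 other members all lay between 0.50 and 0.69. Atp6v1b2 and Atp6v0d1, the abundant partners, lay close to Atp6v1c1, at 0.11 and 0.12, and to Atp6v1h, at 0.10 and 0.14. They lay farther from Atp6v0d2, at 0.33 and 0.37.

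**Figure D5:**
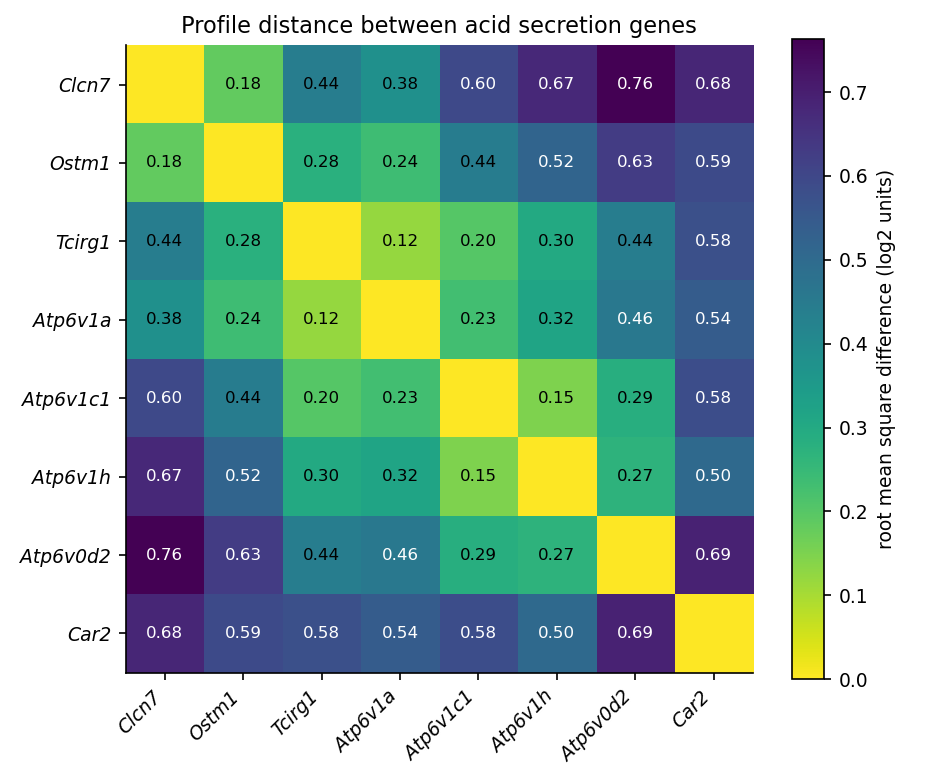
Profile distance in log2 units, the root mean square difference between centred log2(FPKM + 1) values, for the 28 pairs of acid secretion genes, with yellow for near and dark purple for far. The near pairs are Tcirg1 and Atp6v1a (0.12), Atp6v1c1 and Atp6v1h (0.15) and Clcn7 and Ostm1 (0.18), and Car2 lies at least 0.50 from each of the others.

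Genes were named by rule from the 3 expressed genes nearest to each member, over 6 libraries and among 11624 genes. For Car2 they were Trim59, Ppp1r15a and LOC108348091, at distances of 0.080 to 0.084. For Tcirg1 they were Tom1, Nrg1 and Mical1 (0.053 to 0.062), and for Atp6v1a Uap1, Zdhhc24 and Mtmr6 (0.019 to 0.041). Idh1 (0.050) and Cd1d1 (0.054) were among the 3 nearest to Atp6v1c1, and Clns1a, Dhps and Pex2 were nearest to Atp6v1h (0.037 to 0.038). Pex19, Tefm and Dusp22 were nearest to Atp6v0d2, at the larger distances of 0.13 to 0.17. Dnajc13, Kdm7a and Ubr3 were nearest to Clcn7 (0.055 to 0.065), and Iffo1, Ago4 and Tubgcp4 to Ostm1 (0.028 to 0.042). No member was among the 3 nearest genes of another.

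Genes that act around the pump were measured as well. Slc4a2, the exchanger that removes the bicarbonate left by carbonic anhydrase, had 5.57 FPKM in S10 and 8.26 to 12.2 FPKM in the other libraries, while the red cell exchanger Slc4a1 had a median of 254 FPKM. Among the ruffled border and lysosome genes 7 of 8 were expressed, with medians of 376 FPKM for Rac2, 166 FPKM for Lamp1, 109 FPKM for Rab7a and 27.6 FPKM for Snx10, a sorting nexin whose loss also causes osteopetrosis. Snx10 had 54.7 FPKM in S23 and 24.1 to 36.2 FPKM elsewhere, and 5 of these 7 genes were highest in S23, against 24.0% of expressed genes. Under TMM scaling 5 were highest there as well, against 16.0%. Syt7 was the exception to expression, at or under 0.169 FPKM. Of 6 regulators known to act on members, Spi1 (PU.1) had a median of 92.3 FPKM, Tfeb 10.8, Tfe3 6.40, Nfatc1 5.16 and Fos 4.48 FPKM, while Mitf, at 0.983 FPKM, did not pass the limit. Spi1, Tfeb, Tfe3 and Fos were highest in S23, which is 4 of the 5 expressed regulators, against 24.0% of expressed genes, and 3 of 5 under TMM scaling, against 16.0%. Nfatc1 was lowest in S10, at 1.76 FPKM, and highest in S12, at 7.36 FPKM.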

How the data were processed

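RNA from 6 libraries of rat subchondral bone was extracted with an RNeasy kit and sequenced from SMARTER mRNA-Seq libraries, per the labels' protocols. The authors deposited raw counts, without normalization, in 1 table. The same table holds FPKM from the authors, per the file headers, whose sums differ between libraries. For aligner and counter, names were not given in the sources used here. The submitters' processing notes list the mouse builds GRCm38 and mm10, although rows carry rat Ensembl IDs, so no gene coordinates from the table are given.

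Of 30610 rows 10 without values were left out, and 8550 of the others are loci outside the Ensembl annotation. Levels, ranges of log2(FPKM + 1) with a pseudocount of 1, within-library FPKM ratios and profile distances were computed with Python 3.11.15, numpy 2.4.6 and pandas 2.3.3, and intervals with scipy 1.17.1. TMM factors came from edgeR 4.0.16 and median-ratio factors from DESeq2 1.42.0, both on the deposited counts, and were used to rescale FPKM. Length correction removed each library's median deviation in 20 bins of the length implied by count and FPKM. Of 139 genes in the members and fixed lists, 137 had a row. Ranges, distances and length correction were tested on simulated counts.

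Libraries were left ungrouped and untested. The rule for named genes took the members, the fixed lists by level and the 3 nearest genes of each member, 1 of which is not reported here. Other pairs and ratios were chosen after their values were seen. The members and lists were chosen with earlier results of these data known. Alternatives were other scalings, a pseudocount of 0.1, FPKM minimums of 0.1 and none, length correction and leaving out each library. Scaling of the list counts was added after the data were seen. No protein comparison was made, since the reference tables used here hold none, and promoters were read from RefSeq tables.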

Additional observations from a re-analysis of the deposited data

How the results depend on the processing

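The 3 median isoform ratios cannot change with scaling or pseudocount. They kept their sign after length correction and in each leave-out: leaving out each library moved the median log2 ratio of Atp6v0d2 to Atp6v0d1 between -3.09 and -2.97, that of Tcirg1 to Atp6v0a1 between 0.74 and 0.76, and that of Atp6v1c1 to Atp6v1c2 between 6.92 and 7.05. The counts of members at an extreme moved more. Members lowest in S10 numbered 4 in the deposited values, beside 60.1% of expressed genes. They numbered 2 after length correction and under TMM or median-ratio scaling, beside 29.7%, 32.9% and 32.1%. The number stayed at 4 when any other library was left out, beside 60.7% to 63.5%. Members lowest in S20 numbered 2 in the deposited values, beside 17.1% of expressed genes. Under TMM and median-ratio scaling they numbered 4, beside 25.6% and 25.8%. With FPKM at a common sum there was 1, beside 9.54%. With 1 library left out there were 2 to 3, beside 17.9% to 23.8%. Members highest in S23 numbered 5 in the deposited values, beside 24.0% of expressed genes, and 3 after length correction, beside 22.6%. With 1 library left out they numbered 5 to 6, beside 25.2% to 30.3%. Members with a log2 range of at least 1 numbered 4 in the deposited values, beside 36.6% of expressed genes. With FPKM at a common sum they numbered 6, beside 51.4%. Under TMM and median-ratio scaling and after length correction they numbered 3, beside 29.4%, 29.3% and 19.8%. With 1 library left out they numbered 2 to 4, beside 13.6% to 36.2%, the 2 being reached without S10 and without S23. The cause of these shifts was not tested. A tally of values under an alternative covered single genes, distances and the share of all genes with a log2 range of at least 1. Of these 260 values, 230 moved by less than the tolerance and 30 by more. Of 74 values of the isoform ratios and the counts of members, 65 moved by less and 9 by more. The tolerance was 1 SD over the libraries for levels, ranges and isoform ratios, and the gene's own lowest and highest value for percentiles. It was 1.5-fold for distances, the share of genes and the counts of members. The alternative for names with more than 1 row changed nothing, since 0 members had more than 1 row. No paired analysis was possible because the labels place no library in a group. Counting error was small for all 8 members, whose lowest count was 257.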

Other observations

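Car3 and Clcn2, which belong to the lists around the members, had wide ranges. Car3, a carbonic anhydrase of muscle and fat, had 220 FPKM in S12, 50.9 in S10, 47.9 in S13, then 31.6 in S20, 23.2 in S21 and 6.14 in S23. Adipoq, an adipocyte marker, had 62.5 FPKM in S12, 19.4 in S10, 15.1 in S13, then 8.31 in S20, 6.11 in S21 and 0.957 in S23, which is the same order of libraries. The ratio of Car2 to Car3 varied 21.2-fold, between 4.78 in S12 and 101 in S23. Clcn2, a chloride channel of the plasma membrane, had 5.16 FPKM in S20 and 4.02 FPKM in S21, and 0.171 to 1.02 FPKM in the other libraries, a pattern that neither Clcn7 nor Clcn3 had. Its counts were 695 in S20 and 777 in S21, and 23 to 157 elsewhere.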
